A study of Mus musculus with 12 samples.

Results

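Transcripts were counted in myeloid cells sorted from the epidermis of mice 1.5 months after birth (1.5M), and cells of mice lacking Cbfβ2 (KO) were compared with cells of wild-type mice (wt). The comparison used 6 of the 12 libraries of the series, 3 per genotype, and all genes of the table. The sort kept cells with CD45, CD11b and MHC class II on their surface and without CD3, and each tube held 100 of them. The remaining 6 libraries, 3 of each genotype at day 5 after birth (P5), entered the same model, so they share in the estimate of the spread between libraries and in the filter on low genes, and they give the KO effect at P5 with which the effect at 1.5M is compared. The labels do not say how the KO allele was made, whether Cbfβ2 was missing from all tissues, or whether the 3 library preparations of a group came from separate animals, so p-values measure the spread between these preparations, which may be technical.

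Langerhans cells are the antigen-presenting cells of the epidermis. They derive from fetal macrophage precursors, take up residence among keratinocytes, and are held there by adhesion molecules that they share with the epithelium. Their differentiation and persistence depend on TGF-β signalling and on transcription factors of the Runx family, of which Runx3 is the one most closely tied to this cell type. Runx proteins bind DNA as a complex with core-binding factor β, and Cbfβ2 is one of the splice forms of that shared subunit. In bulk RNA of sorted cells, fewer cells of a type and less RNA per cell cannot be told apart, and this holds for every level given below.

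Values are molecule counts scaled to the same total in every library, and are called scaled counts. Log2 fold changes are differences between the means of log2(scaled count + 1), KO minus wt, given with their standard error (SE) and the adjusted p of limma, a linear model fitted across all genes. A gene is written as called, higher or lower where this adjusted p was under 0.05. Where all libraries of a group were at 0, the fold printed is a lower bound against 3 molecules over that group.

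Cbfb, the targeted gene (chromosome 8, 105170674 to 105217989, mm10), was counted at 1.92, 0.994 and 2.4 in KO and 13.8, 7.15 and 10.7 in wt. All 3 KO libraries lay below all 3 wt libraries (log2 fold change −2.05, SE 0.39, adjusted p = 0.00132), and the call was lost after thinning to equal depth (0.257). The tags lie near the 3′ end of transcripts and do not separate the Cbfβ2 form from the others. KO libraries were deeper, with 74620 to 77419 molecules against 40254 to 51848, and 8065 ± 141 genes detected against 6450 ± 310 (SD, n = 3). After thinning to equal depth the numbers of genes detected were 5835 ± 36.01 and 5493 ± 24.99 (exact permutation p = 0.1, the smallest that 3 against 3 libraries allow). Among genes for other cell types, keratinocyte markers summed to 13.4 to 25.4 in KO and 14.7 to 48.8 in wt, neutrophil markers to 4.53 to 6.45 and 1.62 to 9.18, and T and NK cell markers to 0 in KO and 1.78 to 4.29 in wt, while mast cell and endothelial markers were at 0 in all 6. The neutrophil sums were Cxcr2 and Csf3r only, with 10 of 12 genes at 0 in all 6. Of 15 T and NK cell genes 13 were at 0 in all 6, and the wt sum was Cd7 in every library and Klrd1 in 1. Cd7 was called lower (adjusted p = 0.00558), a call lost when only these 6 libraries were fitted (0.110). It was at 0 in every P5 library too, so it passed the filter on low genes only through wt, with 9 molecules. Ptprc, which encodes CD45, was counted at 35.97, 38.8 and 27.8 in KO and 14.7, 14.3 and 19.5 in wt. Itgam, which encodes CD11b, was counted at 11.03, 11.9 and 10.5 in KO and 5.53, 1.43 and 7.11 in wt. Both genes of the sort were present in every library, Ptprc was called (adjusted p = 0.0118) and Itgam was not (adjusted p = 0.0783). Itgam was called, higher, with a mean of at least 5 (0.0244), by voom (0.02381), with a robust fit (0.02395) and without wt library 3 (0.03895). The Ptprc call was lost without wt library 2 (0.0571) or KO library 1 (0.0590) or 2 (0.0848). Y-linked transcripts summed to 1.18 ± 0.36 in KO and 3.70 ± 1.02 in wt and Xist averaged 7.58 and 9.69. The part of these sex-linked differences in the results was not tested, and depth was addressed by thinning the molecules of every library to 30865.

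Of 10023 genes tested, 529 (5.28%) were called, 325 higher (3.24%) and 204 lower (2.04%) in KO. These shares over all genes are the background for every list count below. The lists and their members were chosen with earlier results of these data known. Their counts and medians are therefore a description and not a test. The 2 groups did not overlap in any of the 529, whereas over all genes tested the 3 KO libraries lay above the 3 wt libraries in 13.9% and below them in 7.18%. The median log2 fold change of all genes tested was 0.09. It was 0.00 after thinning, where 359 genes passed, 215 higher and 144 lower, and 325 of the 529 were among them. Fitted on only the 6 libraries of 1.5M, 630 genes passed, 443 higher and 187 lower, and 370 of the 529 were among them. A group at 0 occurred in 169 of the called genes, 120 with no molecule in wt and 49 with none in KO.

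**Figure D1:**
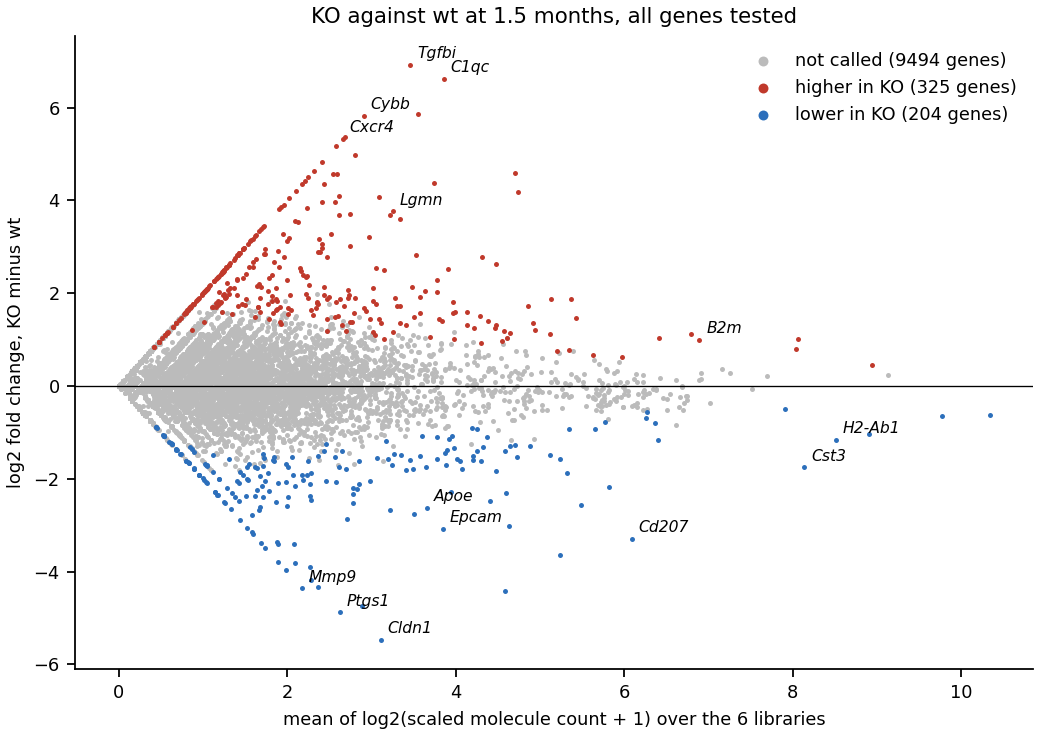
Each point is 1 of the 10023 genes tested, with its mean of log2(scaled count + 1) over the 6 libraries on the x axis and its log2 fold change, KO minus wt, on the y axis. The 325 genes called higher are red, the 204 called lower are blue, and the straight edges of the cloud are genes with 1 group at 0.

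Tgfbi, which encodes a matrix adhesion protein induced by TGF-β (chromosome 13, 56609523 to 56639562), had the highest fold change, with 98.8, 136 and 130.3 in the KO libraries and no molecule in wt, and was at least 146-fold higher (log2 fold change 6.93, SE 0.23, adjusted p = 2.74e-15). Next came 2 chains of C1q, the recognition molecule of complement: C1qc was 130.0, 150.1 and 150.0 in KO and 0, 2.15 and 0 in wt (6.62, SE 0.34, adjusted p = 5.76e-12). C1qb was 83.4, 83.01 and 100.1 in KO and 0.921, 0 and 0.888 in wt (5.86, SE 0.32, adjusted p = 1.61e-11). For both, the lowest KO library was more than an order of magnitude above the highest wt library. Cybb, the electron-carrying subunit of the NADPH oxidase in phagocytes, was 52.3, 57.7 and 57.01 in KO and 0 in all 3 wt libraries (at least 66.9-fold higher). Ms4a7, a membrane protein of mature macrophages, was 41.2, 35.3 and 44.6 in KO and 0 in all 3 wt libraries (at least 48.6-fold higher). Cxcr4, the receptor for the chemokine CXCL12, was 38.8, 42.7 and 35.9 in KO and 0 in all 3 wt libraries (at least 47.1-fold higher). Mmp12, the macrophage elastase, ranged more widely among KO libraries, at 57.1, 29.3 and 25.4, with 0 in all 3 wt libraries (at least 44.8-fold higher). The platelet factor Pf4, a chemokine also made by macrophages, was 26.9, 46.7 and 45.04 in KO and 0.921, 0 and 0 in wt. Dab2, an endocytic adaptor, was 29.3, 24.4 and 28.7 in KO and 0 in all 3 wt libraries. The tetraspanin Cd81 was 17.7, 22.4 and 25.4 in KO and 0 in all 3 wt libraries, and the tetraspanin Tspan13 was 20.1, 22.9 and 18.2 in KO and 0 in all 3 wt libraries. Lilrb4, an inhibitory receptor of the immunoglobulin superfamily, was 21.8, 28.3 and 22.3 in KO and 0 in all 3 wt libraries, and 2 of its 6 values were fractions of a molecule. Srgn, a granule proteoglycan, was 45.6, 23.4 and 21.6 in KO and 0, 0 and 0.888 in wt. Capg, an actin-capping protein, was 20.1, 28.8 and 34.98 in KO and 0, 0.715 and 0 in wt. Crip1, a LIM domain protein, was 106, 137 and 141 in KO and 2.76, 10.02 and 2.67 in wt. Crip1 was the one of the 15 that every wt library also contained at more than 2 scaled counts.

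Cldn1, a claudin of tight junctions (chromosome 16, 26356642 to 26371841), had the lowest fold change, at 0.480, 0 and 0.479 in KO and 56.2, 56.5 and 57.8 in wt (log2 fold change −5.48, SE 0.35, adjusted p = 2.43e-10). One KO library had no molecule, and the groups lay far apart. Ptgs1, which encodes cyclooxygenase 1 and makes prostaglandin precursors, was 0.480, 0 and 0 in KO and 45.2, 25.8 and 29.3 in wt (−4.88, SE 0.33, adjusted p = 7.31e-10). P2ry10, a lysophospholipid receptor, was 0.480, 0.994 and 0 in KO and 25.8, 40.8 and 48.9 in wt (−4.74, SE 0.48, adjusted p = 4.39e-07). Tbc1d4, a Rab GTPase-activating protein, was abundant in wt at 124, 98.7 and 108 and remained detectable in KO at 5.75, 2.98 and 4.31 (−4.41, SE 0.31, adjusted p = 1.30e-09). The gelatinase Mmp9 was 0 in all 3 KO libraries and 24.9, 18.6 and 15.99 in wt (at least 40.9-fold lower). Nedd4, a ubiquitin ligase, was 0 in all 3 KO libraries and 13.8, 12.9 and 17.8 in wt (at least 30.6-fold lower). Ninl, a centrosomal protein, was 0 in all 3 KO libraries and 12.9, 11.4 and 14.2 in wt (at least 26.5-fold lower). The septin gene Sept3 was 0 in all 3 KO libraries and 12.9, 12.9 and 6.22 in wt (at least 21.99-fold lower). Mmp9, Nedd4, Ninl and Sept3 were the 4 of the 15 with no molecule in any KO library. Cd24a, a sialoglycoprotein of many immature and epithelial cells, was 0, 0.497 and 0 in KO and 23.96, 18.6 and 23.99 in wt. Prnp, the prion protein gene, was 0, 0 and 0.479 in KO and 23.96, 15.7 and 20.4 in wt. Il1r2, the decoy receptor for interleukin 1, kept the highest KO levels of the 15, at 12.5, 11.4 and 6.23 in KO and 124, 124 and 151 in wt (−3.65, SE 0.32, adjusted p = 4.31e-08). P2rx2, an ATP-gated channel, was 0, 0 and 0.958 in KO and 15.7, 18.6 and 18.7 in wt. Sema7a, a membrane semaphorin, was 0.480, 0 and 0 in KO and 18.4, 11.4 and 15.99 in wt. Plek2, a pleckstrin of the cell cortex, was 0.480, 0.497 and 0 in KO and 14.7, 10.02 and 14.2 in wt. Scn3a, a sodium channel subunit, was 0.480, 0 and 0 in KO and 16.6, 10.02 and 7.996 in wt. All 30 genes were also called after thinning, when only these 6 libraries were fitted, and with each of the 12 libraries left out.

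**Figure D2:**
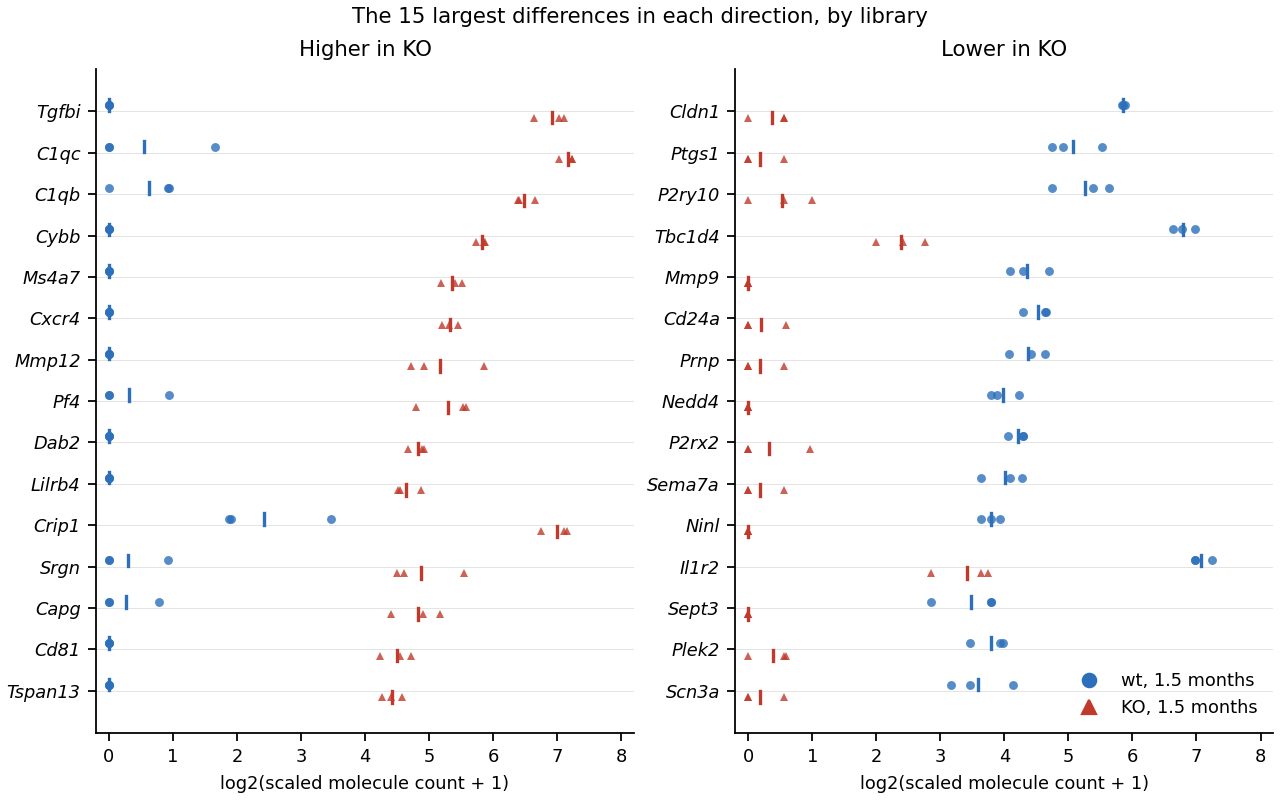
Points are log2(scaled count + 1) in single libraries, circles for the 3 wt and triangles for the 3 KO libraries at 1.5 months, with a bar at each mean, for the 15 largest called differences in each direction. The groups are apart in all 30 genes, and most of the 30 have 1 group at or near 0.

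The 250 bases before the transcription start are shown for 5 of the called genes whose sequence holds a match to the letters searched for, and were chosen after the matches were seen. They are from RefSeq, build GRCm38.p6, read 5′ to 3′ on the strand of the gene, and capitals mark a match on either strand to a Runx motif (TGTGGT or TGCGGT), an AP-1 motif (TGAGTCA) or a PU.1 motif (GAGGAAGT), none of which overlap each other here.
C1qc promoter, chr4:136892915-136893164, minus strand: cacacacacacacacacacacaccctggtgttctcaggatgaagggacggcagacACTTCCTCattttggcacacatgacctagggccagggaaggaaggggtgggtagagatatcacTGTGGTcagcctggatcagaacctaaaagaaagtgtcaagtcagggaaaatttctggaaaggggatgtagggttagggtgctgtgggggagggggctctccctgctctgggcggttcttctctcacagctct
Pf4 promoter, chr5:90772185-90772434, plus strand: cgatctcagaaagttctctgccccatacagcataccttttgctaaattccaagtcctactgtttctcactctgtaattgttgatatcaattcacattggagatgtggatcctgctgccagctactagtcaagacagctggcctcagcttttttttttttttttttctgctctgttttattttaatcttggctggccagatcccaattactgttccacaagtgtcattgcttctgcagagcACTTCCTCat
Mmp12 promoter, chr9:7344147-7344396, plus strand: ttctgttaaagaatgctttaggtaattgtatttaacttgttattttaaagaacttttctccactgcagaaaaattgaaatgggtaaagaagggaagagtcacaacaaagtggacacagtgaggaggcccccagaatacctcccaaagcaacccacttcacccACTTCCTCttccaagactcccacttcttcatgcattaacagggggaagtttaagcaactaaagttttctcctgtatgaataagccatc
Ptgs1 promoter, chr2:36230176-36230425, plus strand: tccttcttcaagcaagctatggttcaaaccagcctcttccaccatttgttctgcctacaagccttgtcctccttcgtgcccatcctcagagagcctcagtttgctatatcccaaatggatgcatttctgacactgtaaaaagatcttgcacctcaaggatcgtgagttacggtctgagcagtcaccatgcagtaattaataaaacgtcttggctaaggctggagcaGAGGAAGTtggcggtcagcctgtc
Cd207 promoter, chr6:83677858-83678107, minus strand: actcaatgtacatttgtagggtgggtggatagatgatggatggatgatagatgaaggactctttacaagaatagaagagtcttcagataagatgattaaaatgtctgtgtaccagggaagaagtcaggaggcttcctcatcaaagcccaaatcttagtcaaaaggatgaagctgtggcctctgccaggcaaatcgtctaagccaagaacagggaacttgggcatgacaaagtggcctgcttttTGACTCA
The C1qc sequence holds GAGGAAGT 195 bases and TGTGGT 132 bases before the start, counted to the first base of the match, Pf4 holds GAGGAAGT at 10 bases, Mmp12 at 88 and Ptgs1 at 24, and Cd207 holds TGAGTCA at 7. Among other genes described here, TGTGGT was found in Cybb (at 103 bases), Cx3cr1 (54) and Runx3 (134 and 126), TGCGGT in Nedd4 (187), Sema7a (130) and Cx3cr1 (127), and TGAGTCA in Prnp (102). The RefSeq starts used for Cybb and Cx3cr1 lie 18447 and 1583 bases from the gene start in GENCODE, so their windows may not be at the start used in these cells. Promoters were matched to 8052 of the 10023 genes tested (80.3%), 7496 by symbol and 556 by an older symbol. TGTGGT was present in 32 of 262 matched genes called higher (12.2%), in 10.4% of the genes tested and in 14.1% of all 27025 promoters in the table. GAGGAAGT was present in 17 of these 262 (6.49%), in 2.82% of the genes tested and in 2.43% of all promoters. For genes called lower only 158 of 204 had a promoter, under the 80% set for such a check, so the check is void for them. A match is a description of letters and not of binding.

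The genes that mark Langerhans cells were mostly called lower. In the Langerhans cell identity list 0 of 9 tested members were called higher and 7 lower, with a median log2 fold change of −3.08, and the list summed to 56.7 to 71.5 scaled counts in KO and 513 to 618 in wt. Cd207, which encodes langerin, the lectin that forms Birbeck granules, was 18.7, 19.4 and 24.9 in KO and 189, 201 and 252 in wt (log2 fold change −3.29, SE 0.32, adjusted p = 1.75e-07). It fell by about an order of magnitude and was still counted in every KO library. Epcam, an epithelial adhesion molecule that Langerhans cells also have, was 5.27, 3.98 and 2.87 in KO and 43.3, 35.8 and 43.5 in wt (−3.08, SE 0.35, adjusted p = 2.88e-06). Ltc4s, which makes leukotriene C4, was 0.959, 1.99 and 1.44 in KO and 10.1, 22.9 and 19.5 in wt (−2.86, SE 0.40, adjusted p = 3.79e-05). Cldn1, Cd24a and Il1r2, given above, are members too. Cdh1, which encodes E-cadherin, was 16.3, 3.48 and 8.62 in KO and 25.8, 33.1 and 32.9 in wt (−1.79, SE 0.38, adjusted p = 0.00383), and the call was lost after thinning to equal depth (0.0532), when only these 6 libraries were fitted (0.122) and without KO library 2 (0.0547). H2-M2, a nonclassical MHC class I gene, was 16.8, 14.9 and 15.8 in KO and 39.6, 34.3 and 36.4 in wt and was not called (adjusted p = 0.157), although its groups did not overlap. It was called, lower, with a pseudocount of 10 (3.34e-04), by voom (1.98e-04) and when only these 6 libraries were fitted (0.00439). Ly75, an endocytic lectin, was not tested because it was above 0 in 1 library.

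Of the cell junction list 0 of 22 tested members were called higher and 5 lower, with a median log2 fold change of −0.28 (−0.27 with genes that have a group at 0 set to the floor), the 5 being Cldn1, Epcam and Cdh1, which are also in the identity list, and Pvrl1 and Cadm3, which are not. Calls of lower members numbered 3 without KO library 2 and 8 with a pseudocount of 10 or by voom. Pvrl1, which encodes nectin 1, was 2.4, 0 and 1.44 in KO and 6.45, 5.72 and 13.3 in wt, and its call was lost when only these 6 libraries were fitted (0.0992) and without wt library 3 (0.0792) or KO library 2 (0.0925). Cadm3, a nectin-like molecule, was 0 in all 3 KO libraries and 1.84, 1.43 and 3.55 in wt (at least 4.69-fold lower). It was also at 0 in every P5 library, so it passed the filter on low genes only through these 3 wt libraries. Its call rests on 8 molecules, and the libraries at 0 add no spread to its SE. Among the catenins, which tie cadherins to actin, Ctnna1 was 11.5, 9.44 and 11.5 in KO and 35.02, 30.05 and 18.7 in wt and missed the threshold (adjusted p = 0.0607), which it passed with a pseudocount of 10 (0.00977), with a mean of at least 5 (0.0173), by voom (8.98e-04), with the replicate number as a block (0.0482), when only these 6 libraries were fitted (0.0476), with a robust fit (0.00821) and without wt library 3 (0.0497) or the P5 library wt 2 (0.0225) or 3 (0.0185). Ctnnb1 was 4.8, 3.48 and 5.75 in KO and 3.69, 6.44 and 5.33 in wt, with overlapping groups.

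Of the genes for the Runx complex itself, Runx1 was 15.3, 9.94 and 11.5 in KO and 5.53, 3.58 and 2.67 in wt and was called higher (1.45, SE 0.41, adjusted p = 0.0389), a call lost with a pseudocount of 0.1 (0.109), without a filter on low genes (0.0520), with quantile normalization (0.0634), after thinning to equal depth (0.392) and without wt library 2 (0.123) or 3 (0.169) or KO library 1 (0.195), 2 (0.0924) or 3 (0.130) or the P5 library wt 1 (0.0536) or the P5 library KO 2 (0.0559). Runx3 was 33.1, 21.4 and 19.6 in KO and 15.7, 20.7 and 10.7 in wt, with the lowest KO library below the highest wt library, and was not called (0.63, SE 0.34, adjusted p = 0.415). Runx2 had a molecule in 1 KO library only. Among the corepressors that bind Runx proteins none was called. Tle1 was 1.44, 4.97 and 2.87 in KO and 0.921, 0 and 0 in wt (adjusted p = 0.0987), and was called, higher, by voom (0.0155) and with a robust fit (0.0428). Tle3 was 1.44, 1.49 and 1.44 in KO and 3.69, 1.43 and 5.33 in wt (adjusted p = 0.618). Cbfa2t3 was 2.4, 0.497 and 0.958 in KO and 1.84, 4.29 and 1.78 in wt (adjusted p = 0.696). Tle4 (0.480, 1.49 and 1.92 in KO and 0.921, 2.15 and 0.888 in wt) and Cbfa2t2 (0.480, 0.497 and 0.479 in KO and 0, 0.715 and 0.888 in wt) were near the detection limit in both groups. Over the whole list 1 of 9 tested members were called higher and 1 lower, with a median log2 fold change of 0.01 (0.00 with genes that have a group at 0 set to the floor), these being Runx1 and Cbfb.

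**Figure D3:**
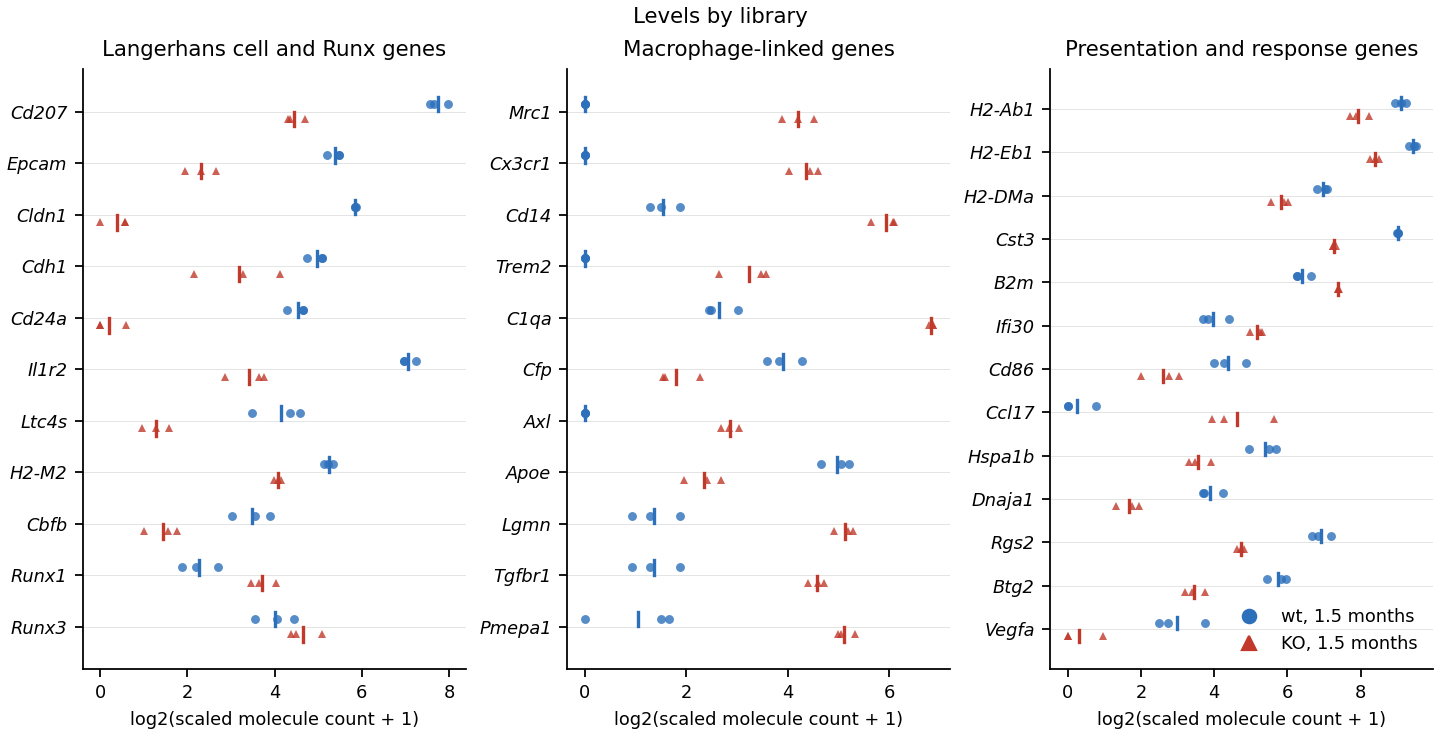
Points are log2(scaled count + 1) in single libraries, circles for the 3 wt and triangles for the 3 KO libraries at 1.5 months, with a bar at each mean, for genes of 3 themes. Cd207, Epcam and Cldn1 are lower, Mrc1, Cx3cr1 and Trem2 are at 0 in all wt libraries, and Cst3 and H2-Ab1 are lower while B2m and Ifi30 are higher in KO.

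Several macrophage and monocyte markers were called higher. Of that list 10 of 22 tested members were called higher and 0 lower, with a median log2 fold change of 1.51 (1.29 with genes that have a group at 0 set to the floor). The list summed to 357 to 414 scaled counts in KO and 83.3 to 114 in wt, and of its 29 genes 19 were at 0 in all wt and 9 in all KO libraries. Mrc1, the mannose receptor, was 22.1, 17.4 and 13.9 in KO and 0 in all 3 wt libraries (at least 21.4-fold higher). Cx3cr1, the fractalkine receptor, was 15.3, 23.4 and 20.6 in KO and 0 in all 3 wt libraries (at least 23.8-fold higher). Cd14, a co-receptor for lipopolysaccharide, was 48.9, 66.1 and 67.6 in KO and 1.84, 1.43 and 2.67 in wt (4.38, SE 0.31, adjusted p = 1.47e-09). Trem2, a lipid-sensing receptor of phagocytes, was 5.27, 10.9 and 10.1 in KO and 0 in all 3 wt libraries (at least 10.5-fold higher). Csf1r, Emr1 and Cd68 were not called. Csf1r, a growth factor receptor that both macrophages and Langerhans cells need, was 63.8, 80.5 and 86.2 in KO and 65.4, 52.2 and 76.4 in wt, with overlapping groups (adjusted p = 0.712). Emr1, which encodes F4/80, was 11.03, 17.9 and 23.96 in KO and 11.1, 6.44 and 6.22 in wt (adjusted p = 0.0684). It was called, higher, with a mean of at least 5 (0.0190), by voom (0.0394), with a robust fit (0.0395) and without wt library 1 (0.0405) or KO library 1 (0.0341). Cd68, a lysosomal glycoprotein, was 6.23, 11.9 and 10.5 in KO and 4.61, 3.58 and 1.78 in wt (adjusted p = 0.0583). It was called, higher, with a pseudocount of 10 (0.0169), by voom (0.0455), with a robust fit (0.0472) and without the P5 library KO 3 (0.0388). Cd163, a haemoglobin scavenger receptor of resident macrophages, had molecules in 1 KO library only.

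For conventional dendritic cells, 3 of 15 tested members were called higher and 0 lower, with a median log2 fold change of 0.06 (0.00 with genes that have a group at 0 set to the floor), and the list summed to 104 to 114 in KO and 47.9 to 59.1 in wt. Mgl2, a lectin of dermal dendritic cells and macrophages, was 16.3, 14.9 and 23 in KO and 2.76, 4.29 and 5.33 in wt. Klf4, a factor of a CD11b+ dendritic cell subset, was 16.3, 11.9 and 9.1 in KO and 0.921, 1.43 and 7.11 in wt. Irf8, a factor of type 1 dendritic cells and monocytes, was 9.11, 11.4 and 12.5 in KO and 6.45, 3.58 and 0.888 in wt. These 3 were the called members. Members called higher numbered 0 after thinning and 5 with a mean of at least 5, by voom or with a robust fit. The Irf8 call was lost with a pseudocount of 0.1 (0.0683), with a pseudocount of 10 (0.0545), after thinning to equal depth (0.0629), when only these 6 libraries were fitted (0.185) and without wt library 2 (0.0747) or 3 (0.226) or KO library 1 (0.0696), 2 (0.149) or 3 (0.167) or the P5 library wt 1 (0.0547). The Klf4 call was lost after thinning to equal depth (0.0520) and when only these 6 libraries were fitted (0.148), and the Mgl2 call after thinning to equal depth (0.0759). Itgax, which encodes CD11c, was 30.7, 32.8 and 39.3 in KO and 12.9, 17.2 and 18.7 in wt, with no overlap and an adjusted p of 0.0625, and was called, higher, with a pseudocount of 10 (0.0123), with a mean of at least 5 (0.0168), by voom (0.00314), when only these 6 libraries were fitted (0.0315), with a robust fit (0.0220) and without the P5 library wt 2 (0.0433) or the P5 library KO 1 (0.0374). Flt3, the receptor that drives dendritic cell development, was 0, 0 and 0.479 in KO and 0, 2.86 and 0 in wt.

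Complement genes were called in both directions, and in the list 5 of 15 tested members were called higher and 1 lower, with a median log2 fold change of 0.57 (0.00 with genes that have a group at 0 set to the floor). C1qa, the third C1q chain, which lies beside C1qb and C1qc on chromosome 4, was 116, 109 and 115 in KO and 4.61, 7.15 and 4.44 in wt (4.18, SE 0.23, adjusted p = 1.63e-11). It was the one C1q chain counted in every wt library. C3ar1, the receptor for C3a, was 6.23, 6.96 and 7.19 in KO and 0 in all 3 wt libraries (at least 8.17-fold higher). Cfp, which encodes properdin, the stabiliser of the alternative pathway's convertase, was 1.92, 1.99 and 3.83 in KO and 11.1, 18.6 and 13.3 in wt and was the one complement gene called lower (−2.11, SE 0.35, adjusted p = 3.59e-04).

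Receptors of the immunoglobulin superfamily that recruit inhibitory phosphatases or activating adaptors were called higher more often than lower. Of that list 13 of 29 tested members were called higher and 1 lower, with a median log2 fold change of 1.10 (0.92 with genes that have a group at 0 set to the floor). The count of lower calls was 0 without KO library 2 and 2 by voom. Slamf9, a receptor of the SLAM family, was 19.7, 24.4 and 23.5 in KO and 0.921, 0.715 and 0 in wt (3.98, SE 0.51, adjusted p = 1.20e-05). Cd33, a sialic acid lectin of myeloid cells, was 5.75, 4.97 and 7.67 in KO and 0 in all 3 wt libraries (at least 7.37-fold higher). Cd300ld, a lipid-binding receptor, was 9.59, 5.47 and 8.62 in KO and 0 in all 3 wt libraries (at least 9.5-fold higher). Pilra, an inhibitory receptor for sialylated ligands, was 3.36, 9.94 and 3.83 in KO and 0 in all 3 wt libraries (at least 6.87-fold higher). The checkpoint receptor listed as 4632428N05Rik (Vsir) was counted in every library, at 13.4, 13.4 and 16.8 in KO and 0.921, 0.715 and 0.888 in wt (3.07, SE 0.38, adjusted p = 8.75e-06). Lair1, a collagen receptor, was 5.99, 7.46 and 5.75 in KO and 0.921, 0 and 0 in wt. Several of these receptors signal through adaptor chains. Fcer1g, the common γ chain of Fc receptors, was 47, 48.7 and 61.8 in KO and 14.7, 15.02 and 15.1 in wt (1.74, SE 0.24, adjusted p = 3.99e-05). Tyrobp, which encodes the adaptor DAP12, was 64.7, 73.6 and 79.1 in KO and 33.2, 58.7 and 65.7 in wt, with overlapping groups (adjusted p = 0.242).

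Among Fc receptors and their signalling chains 4 of 16 tested members were called higher and 0 lower, with a median log2 fold change of 0.84 (0.45 with genes that have a group at 0 set to the floor). Fcgr3, a low-affinity activating receptor for IgG, was 12.9, 21.4 and 24.9 in KO and 3.69, 2.15 and 1.78 in wt (2.54, SE 0.39, adjusted p = 1.32e-04). Fcgr2b, its inhibitory counterpart, was 13.9, 10.9 and 18.7 in KO and 10.1, 13.6 and 8.88 in wt, with overlapping groups. Dok2, an adaptor that damps receptor signalling, was 2.88, 4.47 and 4.79 in KO and 0 in all 3 wt libraries (at least 4.87-fold higher). In the list of C-type lectins 7 of 22 tested members were called higher and 1 lower, with a median log2 fold change of 1.36 (0.49 with genes that have a group at 0 set to the floor), the lower one being Cd207. Higher calls numbered 12 by voom. Clec4a3 was 11.99, 5.97 and 10.5 in KO and 0, 1.43 and 0 in wt (2.92, SE 0.43, adjusted p = 6.89e-05). Clec4a2, its neighbour in the same gene cluster, was 17.3, 16.2 and 11.02 in KO and 0, 1.79 and 0.888 in wt, and 2 of its 6 values were fractions of a molecule. Clec5a, a DAP12-coupled lectin, was 7.19, 11.9 and 9.1 in KO and 0.921, 2.15 and 0.888 in wt (2.18, SE 0.44, adjusted p = 0.00272).

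In the list of pattern recognition genes 5 of 37 tested members were called higher and 0 lower, with a median log2 fold change of 0.26 (0.08 with genes that have a group at 0 set to the floor). The tally of higher members was 9 by voom. Unc93b1, the chaperone that carries endosomal Toll-like receptors, was 13.9, 21.9 and 15.3 in KO and 0.921, 0 and 0 in wt (3.83, SE 0.34, adjusted p = 6.62e-08). The scavenger receptor Cd36 was 8.15, 11.9 and 9.58 in KO and 0 in all 3 wt libraries (at least 11.9-fold higher). Msr1, another scavenger receptor, was 5.27, 6.46 and 6.71 in KO and 0 in all 3 wt libraries (at least 7.4-fold higher). Of the Toll-like receptors, Tlr2, which senses bacterial lipoproteins, was 6.71, 4.97 and 8.14 in KO and 8.29, 1.43 and 0.888 in wt, with overlapping groups. Tlr7, which senses single-stranded RNA, was 0.959, 1.99 and 1.92 in KO and 0 in all 3 wt libraries (adjusted p = 0.0984).

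Of the genes for the uptake of apoptotic cells 8 of 19 tested members were called higher and 1 lower, with a median log2 fold change of 1.26. Lrp1, an endocytic receptor, was 22.5, 23.4 and 27.8 in KO and 0, 0.715 and 0.888 in wt (4.11, SE 0.42, adjusted p = 4.86e-07). Axl, a receptor tyrosine kinase for Gas6-coated cells, was 6.23, 5.47 and 7.19 in KO and 0 in all 3 wt libraries (at least 7.57-fold higher). Itgb5, an integrin that binds the bridging molecule MFG-E8, was 11.03, 9.94 and 7.67 in KO and 0 in all 3 wt libraries (at least 11.5-fold higher). Mfge8, which encodes that bridging molecule, went the other way, at 5.75, 5.97 and 12.9 in KO and 65.4, 66.5 and 78.2 in wt (−3.03, SE 0.38, adjusted p = 1.05e-05). Its wt libraries all lay above 60 and its KO libraries all below 15.

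Of the lysosomal genes 15 of 52 tested members were called higher and 0 lower, with a median log2 fold change of 0.93 (0.71 with genes that have a group at 0 set to the floor). Psap, the precursor of the saposins that help degrade sphingolipids, was 71.5, 74.1 and 89.6 in KO and 23.04, 16.5 and 23.1 in wt (1.87, SE 0.21, adjusted p = 1.47e-06). The cysteine protease Lgmn, also called legumain, was 29.3, 38.3 and 35.5 in KO and 0.921, 1.43 and 2.67 in wt (3.77, SE 0.28, adjusted p = 2.84e-09). The cathepsin Ctsz was 20.6, 19.9 and 26.4 in KO and 8.29, 5.72 and 2.67 in wt. The cathepsin Ctsb was 45.1, 44.2 and 48.4 in KO and 22.1, 16.5 and 19.5 in wt. Npc2, which carries cholesterol out of lysosomes, was 25.4, 19.9 and 21.1 in KO and 8.29, 7.15 and 7.11 in wt. All 3 wt libraries had molecules of each of these genes, and the groups did not overlap. Lamp1, a structural membrane protein of lysosomes, was 18.2, 20.4 and 16.8 in KO and 11.98, 8.58 and 7.996 in wt and not called (adjusted p = 0.0761). It was called, higher, with a mean of at least 5 (0.0205), when only these 6 libraries were fitted (0.0462), with a robust fit (0.0347) and without the P5 library wt 1 (0.0419) or 3 (0.0468). Ctsd, another cathepsin, was 0.959, 2.49 and 4.79 in KO and 1.84, 0 and 0.888 in wt, with overlapping groups. The number called higher was 9 after thinning.

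Of the NADPH oxidase and antioxidant list 6 of 29 tested members were called higher and 1 lower, with a median log2 fold change of 0.41 (0.22 with genes that have a group at 0 set to the floor). Beside Cybb, Rac2, the GTPase that assembles with the oxidase, was 5.75, 6.96 and 11.98 in KO and 0 in all 3 wt libraries (at least 9.9-fold higher). Cyba, the membrane partner of Cybb, was 28.8, 34.8 and 43.6 in KO and 1.84, 6.44 and 10.7 in wt (adjusted p = 4.01e-05), a call lost when only these 6 libraries were fitted (0.0554). The cytosolic subunits Ncf1 and Ncf4 were not called. Ncf1 was 7.19, 3.48 and 6.71 in KO and 11.1, 12.2 and 8.88 in wt (adjusted p = 0.275). Ncf4 was 5.75, 3.98 and 7.19 in KO and 3.69, 5.01 and 10.7 in wt (adjusted p = 0.978). Calls of higher members numbered 3 when only these 6 libraries were fitted. Members called lower numbered 0 without KO library 2 or 3 or wt library 1, 2 or 3 or the P5 library KO 1, 2 or 3 or the P5 library wt 3, 0 after thinning and 0 with a pseudocount of 0.1, with a pseudocount of 10, without a filter on low genes, with quantile normalization or when only these 6 libraries were fitted. Among 17 genes for iron and metal handling, Ftl1, the ferritin light chain, was 162, 150.1 and 175 in KO and 73.7, 74.4 and 74.6 in wt (1.11, SE 0.13, adjusted p = 4.72e-06). The endosomal metal transporter Slc11a1 was 7.67, 4.97 and 7.43 in KO and 0, 0.715 and 0 in wt. The metallothionein Mt1 fell, at 5.27, 3.98 and 4.79 in KO and 26.7, 15.02 and 16.9 in wt (−1.82, SE 0.32, adjusted p = 5.38e-04).

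TGF-β matters for the residence of Langerhans cells, and of its pathway 7 of 29 tested members were called higher and 0 lower, with a median log2 fold change of 0.39 (0.20 with genes that have a group at 0 set to the floor). The count of higher calls was 4 after thinning. Beside Tgfbi, Pmepa1, a target that feeds back on Smad signalling, was 30.7, 39.3 and 32.1 in KO and 1.84, 2.15 and 0 in wt (4.07, SE 0.40, adjusted p = 2.44e-07). Tgfbr1, the type I receptor, was 20.1, 23.4 and 25.4 in KO and 0.921, 1.43 and 2.67 in wt (3.21, SE 0.31, adjusted p = 2.33e-07). Tgfbr2, the type II receptor, was 13.9, 18.9 and 11.02 in KO and 3.69, 4.29 and 2.67 in wt (1.76, SE 0.45, adjusted p = 0.0203), a call lost with a pseudocount of 0.1 (0.0899), after thinning to equal depth (0.140) and without wt library 1 (0.0592) or 3 (0.0967) or KO library 1 (0.0769), 2 (0.156) or 3 (0.0532). Itgav, a subunit of the integrins that activate latent TGF-β, was 8.63, 8.95 and 11.98 in KO and 0, 0.715 and 2.67 in wt, and its call was lost after thinning to equal depth (0.0817). The ligand Tgfb1 was at 0 in wt and 2.4, 2.49 and 1.44 in KO (adjusted p = 0.199). Smad7, an inhibitory Smad induced by TGF-β, was 8.63, 16.4 and 10.5 in KO and 7.37, 10.02 and 7.11 in wt (adjusted p = 0.670). Skil, a Smad corepressor, was 14.4, 13.9 and 14.9 in KO and 18.4, 15.7 and 14.2 in wt (adjusted p = 0.917). The groups of Smad7 and of Skil overlapped.

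In the list of matrix genes, proteases and inhibitors 10 of 36 tested members were called higher and 2 lower, with a median log2 fold change of 0.79 (0.54 with genes that have a group at 0 set to the floor). Mmp13, a collagenase, was 11.5, 12.4 and 15.3 in KO and 0 in all 3 wt libraries (at least 15.7-fold higher). Of the metalloproteases, Mmp12 and Mmp13 were higher and Mmp9 was lower. Timp2, an inhibitor of metalloproteases, was 11.03, 13.9 and 16.8 in KO and 0.921, 0 and 0 in wt (3.57, SE 0.45, adjusted p = 1.07e-05). Col14a1, a fibril-associated collagen, was 4.32, 7.46 and 1.92 in KO and 0 in all 3 wt libraries. Cst3, which encodes the cysteine protease inhibitor cystatin C, was the most abundant gene of the list and fell from 519, 508 and 523 to 150.1, 149.6 and 159 (−1.75, SE 0.11, adjusted p = 2.43e-10). All 3 KO libraries lay far below all 3 wt libraries.

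Antigen presentation genes were called in both directions. Of the MHC class II list 3 of 20 tested members were called higher and 5 lower, with a median log2 fold change of −0.27 (−0.26 with genes that have a group at 0 set to the floor). H2-Ab1, the β chain of I-A, was 297, 208 and 235 in KO and 490.2, 598 and 554 in wt (−1.16, SE 0.16, adjusted p = 2.37e-05). H2-Eb1, the β chain of I-E, was 333, 307 and 365 in KO and 699, 638 and 729 in wt (−1.04, SE 0.13, adjusted p = 1.15e-05). H2-DMa, a chain of the peptide exchange factor, was 45.6, 59.2 and 63.7 in KO and 135, 111 and 129.7 in wt (−1.15, SE 0.18, adjusted p = 1.97e-04). The α chain gene H2-Aa was 666, 677 and 757 in KO and 1035, 1019 and 1215 in wt (−0.64, SE 0.10, adjusted p = 2.41e-04), a call lost with quantile normalization (0.721) and when only these 6 libraries were fitted (0.0906). Cd74, the invariant chain, was 935, 998 and 1214 in KO and 1636, 1510.2 and 1697 in wt (−0.63, SE 0.10, adjusted p = 2.24e-04), a call lost with quantile normalization (0.452) and when only these 6 libraries were fitted (0.143). All 6 libraries had these transcripts at high level, and the cells had been sorted for MHC class II protein. The 3 members called higher, Lgmn, Ifi30 and Ctss, encode enzymes of lysosomal antigen processing. Ifi30, a thiol reductase, was 36.9, 30.3 and 38.3 in KO and 11.98, 20.03 and 13.3 in wt (adjusted p = 0.00367). Ctss, a cathepsin, was 75.3, 70.6 and 85.3 in KO and 48.8, 42.9 and 58.6 in wt (adjusted p = 0.0325), a call lost with a pseudocount of 10 (0.0548), after thinning to equal depth (0.0640), when only these 6 libraries were fitted (0.0771) and without wt library 1 (0.0930) or 2 (0.166) or KO library 1 (0.0764), 2 (0.0668) or 3 (0.176). Of the class I list 2 of 25 tested members were called higher and 0 lower (3.24% and 2.04% over all genes tested), with a median log2 fold change of −0.01. B2m, the light chain of all class I molecules, was 164, 170.0 and 166 in KO and 98.6, 76.5 and 76.4 in wt (0.99, SE 0.14, adjusted p = 5.31e-05). H2-D1, a class I heavy chain, was 119, 119.9 and 125 in KO and 60.6, 56.9 and 58.3 in wt, with fractions of a molecule in all 6 libraries. H2-K1, another class I heavy chain, was 17.02, 11.4 and 16.3 in KO and 9.44, 18.3 and 23.1 in wt, with overlapping groups.

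Of the costimulation and maturation genes 3 of 28 tested members were called higher and 2 lower, with a median log2 fold change of 0.28 (0.00 with genes that have a group at 0 set to the floor). Ccl17, a chemokine of maturing dendritic cells, was 48.4, 14.4 and 18.2 in KO and 0, 0.715 and 0 in wt (4.35, SE 0.51, adjusted p = 3.46e-06). Socs3, a feedback inhibitor of cytokine receptors, was 17.7, 20.4 and 22.04 in KO and 0, 1.43 and 0 in wt (3.96, SE 0.41, adjusted p = 6.32e-07). Cd86, a ligand of CD28, was 7.19, 2.98 and 5.75 in KO and 18.4, 15.02 and 28.4 in wt (adjusted p = 0.0300), a call lost with a pseudocount of 0.1 (0.369), after thinning to equal depth (0.0518) and without wt library 1 (0.0813), 2 (0.0578) or 3 (0.169) or KO library 2 (0.213) or 3 (0.103) or the P5 library wt 1 (0.0504). Cd82, a tetraspanin, was 8.63, 9.94 and 6.71 in KO and 23.04, 20.03 and 15.1 in wt (adjusted p = 0.0325), a call lost with a pseudocount of 0.1 (0.0523), after thinning to equal depth (0.429) and without wt library 1 (0.146) or 2 (0.107) or KO library 1 (0.0853), 2 (0.0600) or 3 (0.167). Cd83, a maturation marker, was 48.9, 42.3 and 37.8 in KO and 54.4, 70.1 and 91.5 in wt and not called (adjusted p = 0.209). Cd40, the receptor for CD40 ligand, was 1.44, 1.49 and 1.92 in KO and 0.921, 4.29 and 2.67 in wt and not called (adjusted p = 0.865). Lower calls numbered 0 without KO library 2 or 3 or wt library 1, 1 without KO library 1 or wt library 2 or 3 or the P5 library wt 1, 0 after thinning, 0 with a pseudocount of 0.1 and 5 by voom.

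Of 18 chemokines tested, 3 were called, Ccl17, Pf4 and Ccl9, and all were higher. Ccl9 was 7.19, 3.48 and 3.35 in KO and 0 in all 3 wt libraries (at least 5.62-fold higher). Of the receptors for chemokines and other traffic signals 3 of 19 tested members were called higher and 0 lower, with a median log2 fold change of 0.41 (0.28 with genes that have a group at 0 set to the floor), among them Cxcr4 and Cx3cr1. In the list of cytokines, growth factors and their receptors 10 of 51 tested members were called higher and 3 lower, with a median log2 fold change of 0.39 (0.35 with genes that have a group at 0 set to the floor). Pdgfb, a platelet-derived growth factor chain, was 11.5, 8.95 and 9.58 in KO and 0 in all 3 wt libraries (at least 12.04-fold higher). Igf1, a growth factor made by tissue macrophages, was 6.23, 5.97 and 10.5 in KO and 0 in all 3 wt libraries (at least 9.12-fold higher). Ifngr1, a chain of the interferon-γ receptor, was 6.23, 4.97 and 11.02 in KO and 0, 0.715 and 0 in wt. In the other direction, Vegfa, the endothelial growth factor, was 0.959, 0 and 0 in KO and 4.61, 5.72 and 12.4 in wt (−2.67, SE 0.49, adjusted p = 0.00101). Csf2rb, the signalling chain of the GM-CSF receptor, was 6.71, 10.9 and 7.67 in KO and 31.3, 20.7 and 18.7 in wt. The groups of Vegfa and of Csf2rb did not overlap. Lifr, the receptor for leukaemia inhibitory factor, was 4.32, 3.48 and 2.4 in KO and 0 in all 3 wt libraries (at least 4.09-fold higher). The tally of higher members was 6 without KO library 1 or 3 and 5 after thinning.

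Of the myeloid transcription factors 9 of 38 tested members were called higher and 0 lower, with a median log2 fold change of 0.50 (0.42 with genes that have a group at 0 set to the floor). Cebpa, a factor of granulocyte and monocyte precursors, was 7.19, 12.9 and 14.4 in KO and 0.921, 0 and 0 in wt (3.28, SE 0.37, adjusted p = 2.27e-06). Zeb2, a zinc finger factor of monocyte-derived cells, was 10.5, 4.97 and 10.5 in KO and 0, 0.715 and 0 in wt (2.95, SE 0.42, adjusted p = 4.95e-05). Sfpi1, which encodes PU.1, was 24.9, 27.3 and 29.2 in KO and 18.4, 24.3 and 17.8 in wt and was not called (adjusted p = 0.426). Id2, an inhibitor of E proteins that Langerhans cells need, was 11.99, 15.4 and 10.5 in KO and 0, 4.29 and 5.33 in wt, a call lost with a pseudocount of 0.1 (0.0748), after thinning to equal depth (0.0871), when only these 6 libraries were fitted (0.226) and without KO library 2 (0.0661). The number called higher was 5 without KO library 2 and 3 after thinning.

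Immediate early genes, which stress and tissue dissociation can induce, were called in both directions. Of that list 4 of 34 tested members were called higher and 4 lower, with a median log2 fold change of −0.08. Rgs2, a regulator of G protein signalling, was 25.4, 23.9 and 27.3 in KO and 147, 102 and 113 in wt (−2.18, SE 0.20, adjusted p = 9.40e-08). Btg2, an antiproliferative gene, was 8.15, 9.44 and 12.5 in KO and 42.4, 61.5 and 55.97 in wt (−2.30, SE 0.38, adjusted p = 2.93e-04). Fosl2, an AP-1 subunit, was 6.71, 10.4 and 5.27 in KO and 27.6, 27.9 and 22.2 in wt (−1.71, SE 0.36, adjusted p = 0.00402). Dusp1, a phosphatase that ends MAP kinase signals, was 64.7, 80.5 and 68.03 in KO and 26.7, 18.6 and 31.1 in wt and higher (1.47, SE 0.25, adjusted p = 4.06e-04). Fos was 58.98, 61.6 and 65.2 in KO and 46.99, 53.7 and 42.6 in wt and not called (adjusted p = 0.552). Junb was 85.8, 65.6 and 46.5 in KO and 35.02, 75.1 and 55.1 in wt and not called (adjusted p = 0.727). Calls of higher members numbered 2 without KO library 2 and 1 after thinning. Members called lower numbered 9 by voom. Of the heat shock list 1 of 24 tested members were called higher and 3 lower, with a median log2 fold change of 0.10. The inducible chaperone gene Hspa1b was 14.1, 8.95 and 10.1 in KO and 50.7, 44.6 and 30.2 in wt (−1.82, SE 0.27, adjusted p = 1.07e-04), and 2 of its 6 values were fractions of a molecule. Dnaja1, a co-chaperone, was 2.88, 1.49 and 2.4 in KO and 11.98, 12.2 and 17.8 in wt (−2.20, SE 0.36, adjusted p = 2.72e-04). Hsp90b1, the chaperone of the endoplasmic reticulum and the member called higher, was 20.6, 18.9 and 14.4 in KO and 13.8, 5.01 and 7.11 in wt, a call lost with a pseudocount of 0.1 (0.0724), with a pseudocount of 10 (0.0539), without a filter on low genes (0.0667), with median-of-ratios scaling (0.0548), with quantile normalization (0.108), when only these 6 libraries were fitted (0.197) and without wt library 2 (0.257) or 3 (0.159) or KO library 1 (0.205), 2 (0.184) or 3 (0.0753) or the P5 library wt 1 (0.0666), 2 (0.0554) or 3 (0.0551) or the P5 library KO 1 (0.0540), 2 (0.0520) or 3 (0.0582). Whether the handling of cells had a part in these differences was not tested.

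Lipid genes were called in both directions. In the list of lipid transport genes and LXR targets 7 of 31 tested members were called higher and 3 lower, with a median log2 fold change of 0.29. Apoe, which encodes a carrier of cholesterol, was 2.88, 5.47 and 4.31 in KO and 35.9, 24.3 and 31.98 in wt (−2.62, SE 0.32, adjusted p = 6.46e-06). Lpl, lipoprotein lipase, was 8.15, 6.96 and 5.34 in KO and 0 in all 3 wt libraries (at least 8.2-fold higher). Pltp, the phospholipid transfer protein, was 10.1, 9.44 and 14.9 in KO and 0, 1.43 and 0 in wt (3.19, SE 0.47, adjusted p = 7.90e-05). Abca1, the LXR target that exports cholesterol, was 8.63, 4.97 and 5.27 in KO and 1.84, 2.15 and 0.888 in wt and not called (adjusted p = 0.102). The count of lower calls was 1 without KO library 2 or wt library 1 and 1 with a pseudocount of 0.1. For prostaglandin and leukotriene genes 2 of 22 tested members were called higher and 5 lower, with a median log2 fold change of 0.00. Besides Ptgs1 and Ltc4s, Alox5ap, which presents arachidonate to the lipoxygenase, was 4.8, 7.95 and 8.62 in KO and 21.2, 23.6 and 23.1 in wt (−1.57, SE 0.29, adjusted p = 8.77e-04). Hpgds, a prostaglandin D synthase, was 7.67, 8.45 and 7.67 in KO and 24.9, 24.3 and 20.4 in wt (−1.44, SE 0.28, adjusted p = 0.00180). Pla2g7, a lipase that hydrolyses platelet-activating factor, was 12.9, 18.4 and 19.6 in KO and 0.921, 0.715 and 0.888 in wt (adjusted p = 3.42e-07). Ephx1, an epoxide hydrolase, was 7.67, 4.47 and 9.1 in KO and 0 in all 3 wt libraries (at least 8.52-fold higher).

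Of the cytoskeletal genes 13 of 56 tested members were called higher and 3 lower, with a median log2 fold change of 0.27 (0.24 with genes that have a group at 0 set to the floor). Vim, which encodes vimentin, was 345, 405 and 395 in KO and 217, 158 and 192 in wt (1.02, SE 0.13, adjusted p = 1.09e-05). Tmsb4x, an actin monomer binder, was 334, 352 and 355 in KO and 223, 198 and 175 in wt (0.81, SE 0.12, adjusted p = 5.37e-05). Arpc2, a subunit of the Arp2/3 complex, was 69.5, 73.1 and 57.01 in KO and 14.7, 22.2 and 15.99 in wt (1.87, SE 0.26, adjusted p = 3.93e-05). Flna, which encodes filamin A, was 33.1, 32.3 and 30.2 in KO and 7.37, 15.02 and 10.7 in wt. Gsn, the actin-severing protein gelsolin, fell, at 14.9, 16.4 and 15.8 in KO and 40.5, 37.2 and 40.9 in wt (−1.28, SE 0.25, adjusted p = 0.00190), as did Plek2. Of the leukocyte integrins and adhesion genes 4 of 22 tested members were called higher and 0 lower, with a median log2 fold change of 0.99 (0.70 with genes that have a group at 0 set to the floor). Higher calls numbered 2 after thinning and 7 by voom. S100a11, a calcium-binding protein of epithelia and Langerhans cells, was 26.4, 16.9 and 17.7 in KO and 61.7, 98.7 and 71.97 in wt (−1.88, SE 0.23, adjusted p = 6.46e-06). The galectin Lgals3 was 34.05, 30.8 and 34.5 in KO and 14.7, 10.7 and 15.1 in wt (1.24, SE 0.24, adjusted p = 0.00183).

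Of the purinergic and G protein-coupled receptor list 5 of 40 tested members were called higher and 4 lower, with a median log2 fold change of 0.28 (0.05 with genes that have a group at 0 set to the floor). P2ry6, a receptor for uridine diphosphate, was 5.27, 3.98 and 5.27 in KO and 0 in all 3 wt libraries (at least 5.82-fold higher), against P2ry10 and P2rx2, which were lower. The tally of higher members was 3 without KO library 1, 2 or 3 or wt library 1 or 2, 1 after thinning and 8 by voom or when only these 6 libraries were fitted. Rab14, an endosomal GTPase, was 13.9, 10.4 and 14.9 in KO and 3.69, 4.29 and 5.33 in wt (1.37, SE 0.30, adjusted p = 0.00520). Snx5, a sorting nexin, was 19.2, 19.4 and 12.9 in KO and 3.69, 6.44 and 3.55 in wt (1.72, SE 0.31, adjusted p = 6.96e-04). The taurine transporter Slc6a6 was 25.4, 31.3 and 28.7 in KO and 5.53, 10.02 and 7.11 in wt (1.81, SE 0.31, adjusted p = 4.81e-04).

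**Figure D4:**
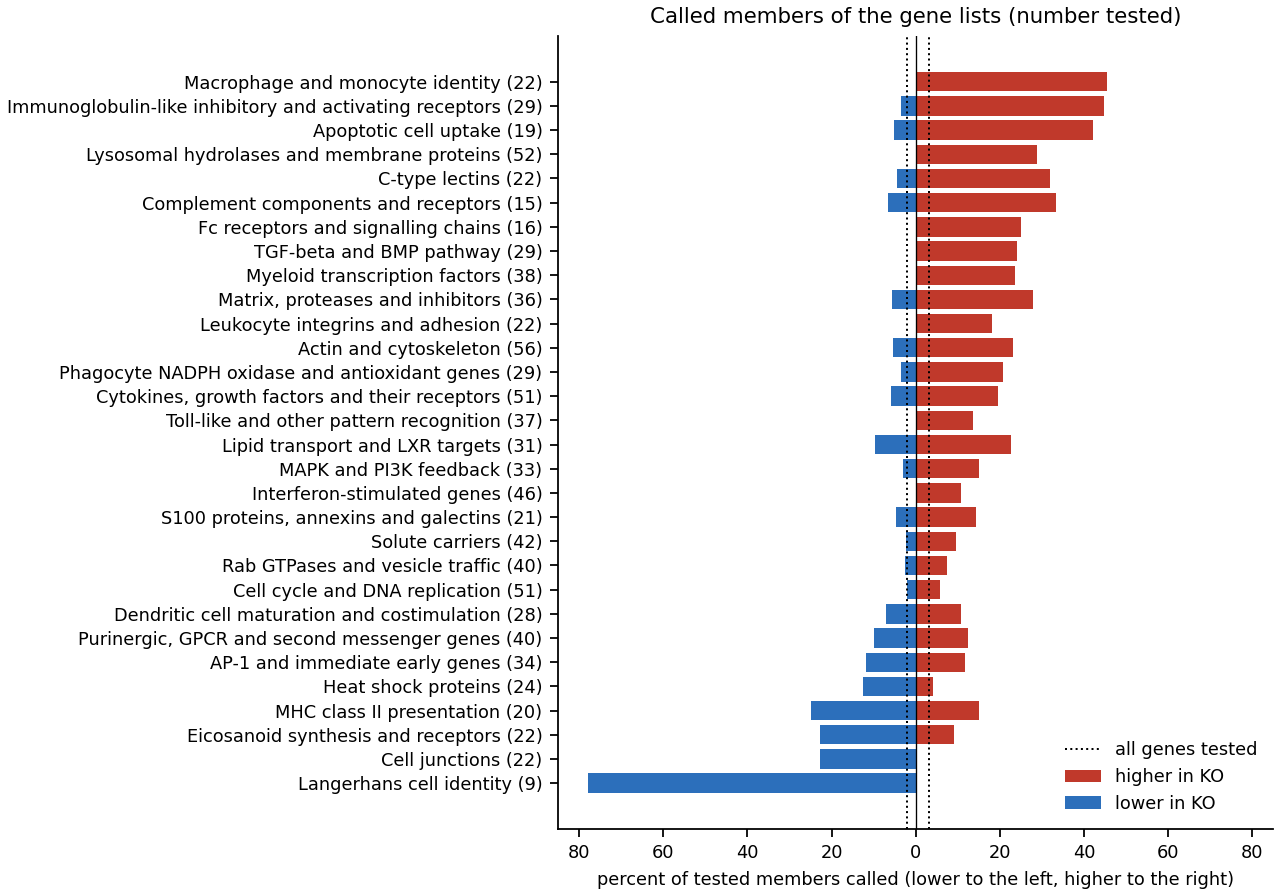
Bars give the percent of the tested members of each list that were called higher (red, to the right) or lower (blue, to the left) in KO, for the lists with at least 4 calls, and the number tested stands beside each name. Dotted lines mark the 3.24% higher and 2.04% lower over all genes tested. The lists were chosen with earlier results of these data known. Macrophage markers lie at the top and Langerhans cell markers at the bottom.

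Several lists had 1 call or none. Over all genes tested 3.24% were called higher and 2.04% lower, and the counts of this paragraph are to be read against these shares. Of the 20 keratinocyte genes tested, 0 were called by limma, 0 had an unadjusted p under 0.05, and voom called 0. Of 78 ribosomal protein genes 62 had a log2 fold change below 0 and 16 above, 22 had all KO libraries below all wt libraries (against 7.18% of all genes tested), and Rpl35a was called, lower. Lower calls in this list numbered 10 by voom, 6 with a mean of at least 5, 4 with median-of-ratios scaling or with a robust fit, and 0 to 2 in the other alternatives. Of 70 respiratory chain genes Ndufa6 was called, lower (9.11, 8.95 and 7.19 in KO and 21.2, 30.05 and 31.1 in wt). Of 24 glycolysis genes Eno1 was called, higher, and of 35 proteasome genes Psmc1, higher. The Rpl35a call was lost with a pseudocount of 10 (0.0631), without a filter on low genes (0.0542), with quantile normalization (0.156), after thinning to equal depth (0.340), when only these 6 libraries were fitted (0.107) and without wt library 1 (0.185) or 2 (0.162) or KO library 1 (0.0614), 2 (0.120) or 3 (0.188) or the P5 library wt 2 (0.0528) or 3 (0.0509). The Ndufa6 call was lost after thinning to equal depth (0.152), and the Eno1 call with quantile normalization (0.0534), after thinning to equal depth (0.298) and without wt library 3 (0.0752) or KO library 3 (0.119). The Psmc1 call was lost with a pseudocount of 0.1 (0.0912), with a pseudocount of 10 (0.0685), without a filter on low genes (0.0549), when only these 6 libraries were fitted (0.235) and without wt library 1 (0.248) or 3 (0.128) or KO library 1 (0.181), 2 (0.145) or 3 (0.111) or the P5 library wt 1 (0.0581) or 3 (0.05005) or the P5 library KO 1 (0.0537), 2 (0.0602) or 3 (0.0527). In the cell cycle list 3 of 51 tested members were called higher and 1 lower, with a median log2 fold change of 0.49 (0.06 with genes that have a group at 0 set to the floor), the 4 being Mcm2, Mcm6 and Cdkn2c, higher, and H2afz, lower. After thinning to equal depth none of these 4 was called (adjusted p = 0.311, 0.0566, 0.309 and 0.132). The number called higher was 0 without KO library 3 or wt library 2 or 3, 1 without KO library 1 or 2 or wt library 1, 1 after thinning and 5 by voom or when only these 6 libraries were fitted. Calls of lower members numbered 0 without KO library 2 or wt library 1, 0 after thinning and 0 when only these 6 libraries were fitted. For interferon-stimulated genes 5 of 46 tested members were called higher and 0 lower, with a median log2 fold change of 0.53 (0.00 with genes that have a group at 0 set to the floor). Members called higher numbered 3 after thinning. Slfn2, a member of the Schlafen family, was 5.27, 6.96 and 6.71 in KO and 0 in all 3 wt libraries (at least 7.59-fold higher). In the cholesterol synthesis list 0 of 24 tested members were called higher and 2 lower, with a median log2 fold change of −0.18, the 2 being Hmgcs1 and Pmvk. The synthase Hmgcs1 was 1.44, 1.49 and 0.479 in KO and 5.53, 10.7 and 18.7 in wt, a call lost with a pseudocount of 0.1 (0.162) and without wt library 2 (0.0607) or 3 (0.108) or KO library 2 (0.0540) or 3 (0.107). The kinase Pmvk was 0.480, 1.49 and 0.958 in KO and 11.1, 8.58 and 3.55 in wt, a call lost with a pseudocount of 0.1 (0.159), after thinning to equal depth (0.0602), when only these 6 libraries were fitted (0.0538) and without wt library 1 (0.112) or 2 (0.0858) or KO library 1 (0.0864) or 3 (0.0639).

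The KO effect at 1.5M was set against the effect at P5 by the difference between the 2 effects, which passed the threshold in 200 of 10023 genes (2.0%), 132 of them with a more positive effect at 1.5M and 68 with a more negative one. The 2 ages share no library. Markers of other cell types differed between the genotypes at P5: keratinocyte markers summed to 796, 264 and 290 in the KO libraries and 81.1 to 121 in wt, neutrophil markers to 92.6, 52.6 and 265 against 7.95 to 20.03, and erythroid markers to 361, 491 and 0.792 against 0 to 4.26. Sex-linked transcripts differed at P5 too. Y-linked transcripts summed to 0 in every wt library and to 2.72, 2.18 and 8.4 in KO. Xist was 36.9, 21.7 and 16.6 in wt and 9.08, 10.9 and 13.2 in KO. The part of these markers and of sex in the differences between the ages was not tested. Of the 529 genes called at 1.5M, 160 passed this test. At P5, 180 genes were called, 61 of which were also called at 1.5M, 33.9% of the P5 calls and 11.5% of the 1.5M calls, and 56 of the 61 had the same direction. Of the 30 genes with the largest differences at 1.5M, 26 differed between the ages. They were chosen for the size of the effect at 1.5M, which is part of the tested difference, so the choice itself raises this share. The log2 fold change of C1qc was 6.62 at 1.5M and 0.02, SE 0.34 at P5 (difference 6.60, SE 0.48, adjusted p = 6.15e-09). That of Tgfbi was 6.93 at 1.5M and 0.83, SE 0.23 at P5 (difference 6.10, SE 0.33, adjusted p = 6.59e-11). Tgfbr1 and Apoe had opposite signs at the 2 ages, which does not by itself mean that the P5 effect was called. Tgfbr1 had 3.21 at 1.5M and −1.22, SE 0.31 at P5 (difference 4.43, SE 0.45, adjusted p = 1.81e-06). Its P5 effect was near the threshold (limma adjusted p = 0.0487). Apoe had −2.62 at 1.5M and 1.09, SE 0.32 at P5 (difference −3.71, SE 0.45, adjusted p = 2.59e-05). Cldn1 was lower at both ages, with −5.48 at 1.5M and −1.76, SE 0.35 at P5 (difference −3.72, SE 0.49, adjusted p = 7.40e-05). For Epcam the effects of −3.08 at 1.5M and −2.45, SE 0.35 at P5 were not found to differ (difference −0.62, SE 0.50, adjusted p = 0.670). The same holds for Ltc4s, with −2.86 and −2.87, SE 0.40 (difference 0.01, SE 0.56, adjusted p = 0.994), and for Dusp1, with 1.47 and 2.17, SE 0.25 (difference −0.70, SE 0.35, adjusted p = 0.404). A p that misses the threshold does not show that the effects were equal.

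**Figure D5:**
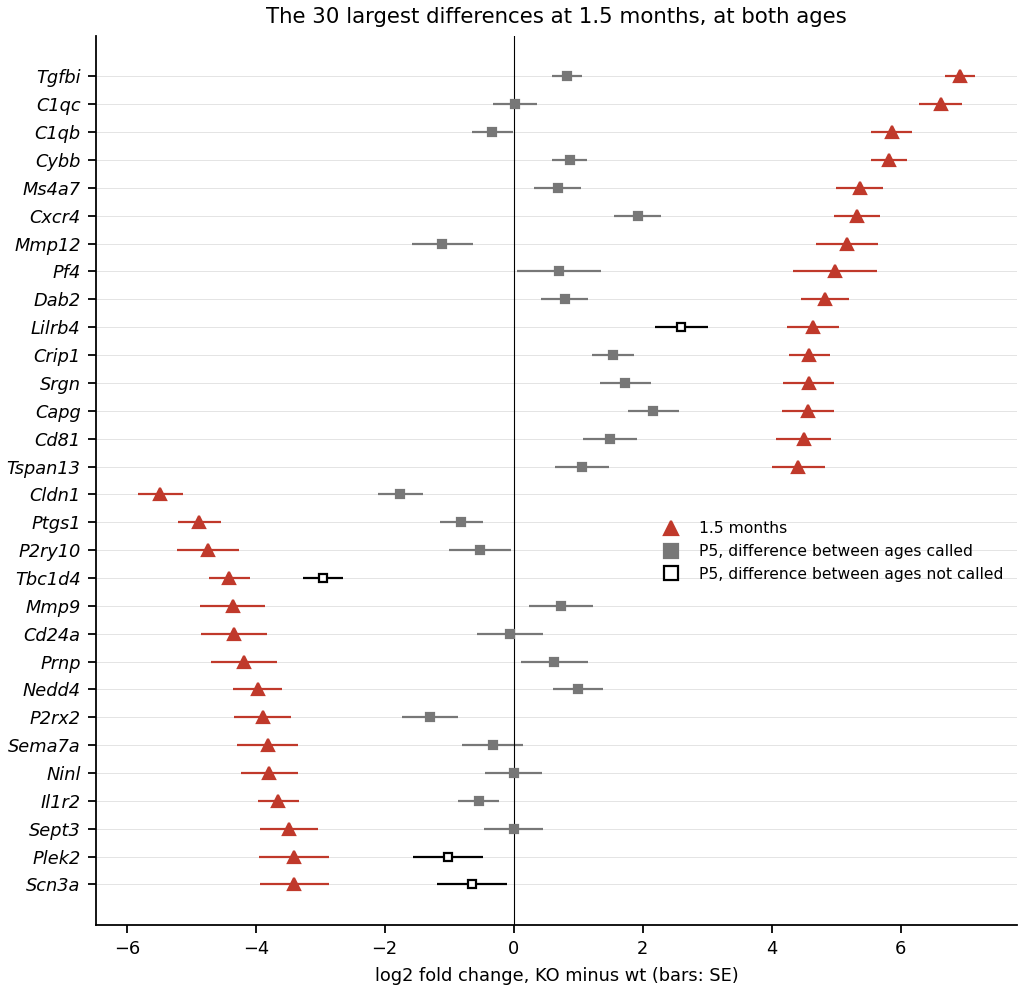
Log2 fold changes, KO minus wt, of the 30 genes with the largest differences at 1.5 months, as triangles for 1.5 months and squares for P5, with bars for the SE. The choice by size at 1.5 months favours a difference between the ages. Filled squares mark the 26 genes whose effects at the 2 ages differ by the test of the difference, and open squares the other 4, which are Lilrb4, Tbc1d4, Plek2 and Scn3a.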

How the data were processed

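Each library came from 100 sorted epidermal cells, and reverse transcription used an oligo-dT primer with a molecular barcode, per the labels' protocols. Reads were aligned to mm10 with TopHat2, per the submitters' processing notes. Neither the annotation nor the use of strand is given in the sources used here. For 23420 gene symbols the authors deposited a signal, scaled to the same total in every library. The step of a library was taken as its most frequent value above 0. Between 92.6% and 94.9% of values above 0 were whole multiples, within 0.01, of the step of their library, so they were not treated as raw counts.

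With the number of libraries per group at 3, limma 3.58.1 in R 4.3.3 was fitted with a mean-variance trend to log2(signal + 1) over all 12 libraries in 4 group means, for 10023 genes above 0 in at least 3 libraries. Adjustment was by Benjamini and Hochberg, with a threshold of 0.05. The procedure was tested on simulated data, in which 100 genes were changed 2-fold and 100 were changed 4-fold in KO. It called 18% of the 2-fold and 74% of the 4-fold changes, with 1 false call. Every simulated library was drawn from the wt means at 1.5M with a dispersion of 0.05, and 8282 genes were tested. The simulated P5 libraries thus lacked the differences of the real ones, so these figures may not hold for the real data. The changed genes averaged at least 5 in wt, so a gene that is not called may still differ. For the thinned alternative, values were divided by the step of their library, rounded and reduced to 30865 molecules.

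The genes named are, for each direction, the 15 with the largest log2 fold change among called genes whose groups did not overlap and whose higher group averaged at least 5, all members of the Langerhans cell and Runx lists, and up to 6 called members of each of 56 lists, with uncalled members that show how a list is made up. Of 1578 list genes, 1290 were tested, and 24 symbols were matched by an older name. Some genes that this rule names are not reported here. Members and lists were chosen with earlier results of these data known. Alternatives were 2 other pseudocounts, 2 other filters, 2 scalings, thinning, voom, a robust fit, a replicate block, a fit of 6 libraries and leaving out each library. Leaving out P5 libraries in the comparison at 1.5M, and the robust fit of the difference between the ages, were chosen after the data were seen.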

Additional observations from a re-analysis of the deposited data

Results flagged for a closer look

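The KO effect at 1.5M differed from that at P5, by limma's test of the difference between the 2 effects (adjusted p under 0.05), for 75 of the genes described above. These genes were chosen among those called at 1.5M, and of all 529 genes called there 160 (30.2%) passed the same test. The P5 KO libraries held more keratinocyte and neutrophil marker transcripts than P5 wt, as given in the report. They also held Y-linked transcripts, which P5 wt did not. The part of either in the differences was not tested. All values here are log2 differences, the effect at 1.5M minus the effect at P5, and were positive for 55 genes and negative for 20. The effects at the 2 ages had opposite signs for 29 genes, and 3 of these were called at P5. Of the 75, 34 passed in every alternative in which they were tested and with each of the 12 libraries left out, 16 passed with each library left out but not in every other alternative, and 25 lost the call without at least 1 library.

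Among the 34 genes that passed throughout, the C1q chains had differences of 4.79 for C1qa, 6.2 for C1qb and 6.6 for C1qc. For genes of the TGF-β pathway the values were 6.1 for Tgfbi, 4.55 for Pmepa1 and 4.43 for Tgfbr1. Macrophage and phagocyte genes had 4.96 for Cybb, 4.68 for Ms4a7, 3.93 for Mrc1, 3.97 for Clec4a3, 4.03 for Dab2 and 3.7 for Itgb5. For matrix and lysosomal enzymes and inhibitors the values were 6.27 for Mmp12, 4.3 for Timp2, 3.19 for Lgmn and 1.88 for Ifi30. The class I genes B2m and H2-D1 had 1.63 and 1.44. The other positive differences were 4.68 for Ccl17, 3.36 for Tspan13, 2.5 for Rab14 and 1.54 for Vim. Negative differences were found for Langerhans cell genes, with −3.72 for Cldn1, −4.28 for Cd24a and −3.11 for Il1r2. They were also found for enzymes and lipid genes, with −4.06 for Ptgs1, −5.09 for Mmp9, −4.97 for Nedd4 and −3.71 for Apoe. The remaining negative values were −4.82 for Prnp, −3.79 for Ninl, −3.48 for Sept3, −3.07 for Cfp and −2.48 for Fosl2. The P5 effect of Ninl and of Sept3 was 0.0, so their differences only repeat the effect at 1.5M.

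The 16 genes that missed the threshold in another alternative were positive for Cxcr4 (3.4), Crip1 (3.05), Srgn (2.84), Cd81 (3), Cd14 (2.34) and Mgl2 (2.57). They were positive too for Cebpa (2.69), Clec4a2 (2.86), Unc93b1 (2.77), Cd33 (3.25), Mmp13 (3.5) and Lrp1 (2.96). The negative ones were P2ry10 (−4.22), Sema7a (−3.49), Vegfa (−3.93) and Cst3 (−0.76).

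For the 25 genes whose call was lost without at least 1 library, the adjusted p without it is given as a range over those libraries. For phagocyte genes the differences were 4.28 for Pf4 (0.0528 to 0.0779), 2.4 for Capg (0.0501 to 0.111), 2.56 for Cx3cr1 (0.0526), 2.98 for Axl (0.0543 to 0.102) and 2.3 for Cyba (0.0599 to 0.0772). Receptors and their chains had 2.12 for Fcgr3 (0.0630 to 0.174), 1.4 for Fcer1g (0.0523 to 0.127), 3.38 for Slamf9 (0.0609 to 0.0631), 3.21 for Lair1 (0.0543) and 3.15 for P2ry6 (0.0834 to 0.127). Integrin, matrix and growth factor genes had 2.39 for Itgav (0.0534 to 0.132), 2.6 for Col14a1 (0.0578 to 0.0754) and 2.81 for Pdgfb (0.0597 to 0.108). The regulators Id2 and Socs3 had 2.6 (0.0723 to 0.151) and 2.36 (0.0620 to 0.127). Lysosomal, lipid and transport genes had 1.44 for Npc2 (0.0627 to 0.0657), 0.99 for Ctss (0.0580 to 0.114), 0.86 for Ftl1 (0.0631), 1.89 for Pla2g7 (0.0530 to 0.119), 2.96 for Ephx1 (0.0524 to 0.0972) and 1.68 for Snx5 (0.0572 to 0.148). The negative differences were −2.02 for Cd207 (0.0550 to 0.0687), −2.59 for P2rx2 (0.0552 to 0.0758), −0.78 for H2-Eb1 (0.0575 to 0.137) and −1.56 for S100a11 (0.0510). At P5 Cd207 was 0 in all 3 KO libraries and 0.71, 1.08 and 2.93 in wt, so its P5 effect rests on few molecules. Its difference was also not called by voom (0.375) or after thinning (0.1305). Leaving out KO library 2 of 1.5M lost the most of these calls, 21, and leaving out KO library 3 of P5 the fewest, 9.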

How the results depend on the processing

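Of the 145 called genes described above other than Cd7, 117 stayed called in the same direction in every one of the 23 alternatives in which they were tested, and none changed direction. Of all 529 calls, 221 did so. Of the 35 uncalled genes described, 14 were called in at least 1 alternative, Ctnna1 in 9 and Itgax in 7 of them. Emr1 and Lamp1 were called in 5 each, Cd68 and Itgam in 4 each and H2-M2 in 3. Tgfb1, Tle1 and Tlr7 were called in 2 each, and Abca1, Cd83, Tlr2 and Tyrobp in 1 each. The number of called genes was 297 among genes with a mean of at least 5 (187 higher and 110 lower), where fewer genes were tested, and 843 by voom (465 higher and 378 lower), for which the cause was not tested. It was 336 to 412 with 1 of the 6 libraries of 1.5M left out, lowest without KO library 2, and 498 to 548 with 1 of the 6 libraries of P5 left out, an alternative chosen after the data were seen. The number of genes whose KO effect differed between the ages, 200 in the report, was 133 with a pseudocount of 0.1, 94 after thinning, 330 by voom and 115 to 198 with 1 of all 12 libraries left out, lowest without KO library 3 of 1.5M and 122 without KO library 2.

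The difference between the ages reversed with a pseudocount of 0.1 for Cd207 (0.49, adjusted p = 0.823) and Tbc1d4 (1.42, adjusted p = 0.348). Reversed log2 fold changes, all of uncalled genes, were −0.0058 with a pseudocount of 10, −0.24 with quantile normalization and −0.24 by voom for Cbfa2t2 and −0.25 by voom for Runx2. After thinning they were −0.15 for Fcgr2b, 0.077 for H2-K1 and 0.94 for Tle4. With a library left out the ranges were −0.28 to 0.18 for Cbfa2t2, −0.29 to 0.050 for Ctnnb1, −0.79 to 0.19 for Flt3, −0.46 to 0.15 for H2-K1, −0.0075 to 0.53 for Junb, −0.36 to 0.29 for Ncf4 and −0.23 to 0.26 for Tle4.

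Replicate numbers did not pair the libraries: deviations of same-numbered libraries correlated at −0.043, −0.014 and 0.0038 over 1197 genes. With the replicate number as a block 508 genes were called at 1.5M and 195 differed between the ages, so neither count moved by over 1.5 times. A scaled count of 1 is about 1 molecule in wt and 2 in KO, so levels near 0 rest on few molecules.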
